A study of Mus musculus with 12 samples.

Results

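The genes described here are 43 regulators and structural proteins of the cell cycle and mitosis, listed by name for their roles. Of the 43, 42 had at least 1 probe on the array and all 42 were tested, among 19038 features tested in all. Ccnd1, which encodes cyclin D1, matched no probe through its accession and is not analysed here. The members fall into 4 roles: 13 act in G1 and at the entry to S phase, 12 in G2 and at the entry to mitosis, 10 in the spindle checkpoint and anaphase, and 8 at the centromere and spindle. They were read by 67 probes, 60 of which were kept. None of the members is X-linked.

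Expression was measured in 12 single mouse morulae, 1 embryo per single-colour array, all of the (C57BL/6 x DBA/2) F1 background. The siXist group held 4 male embryos cloned from Sertoli cells, the somatic support cells of the testis, and injected with siRNA against Xist, the RNA that silences an X chromosome in cis. The siCont group held 4 male Sertoli cell clones injected with a Control siRNA. Injection took place 6 to 7 h after activation, at the 1-cell stage. The IVF group held 4 embryos from in vitro fertilization without injection, 2 female (embryos 2 and 4) and 2 male (embryos 1 and 3). All embryos were cultured in KSOM medium for 72 h. The clones differ from IVF embryos in nuclear transfer and in injection together, and no uninjected clone was analysed here.

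Progress through the cell cycle is driven by cyclin-dependent kinases, whose cyclin partners are made and destroyed in turn. D and E cyclins with Cdk4, Cdk6 and Cdk2 act on the retinoblastoma protein and the E2F factors to open S phase, and cyclins A and B with Cdk1 drive mitosis. The spindle checkpoint holds the anaphase-promoting complex until chromosomes are attached, after which securin and cyclin B are degraded. Cleavage embryos divide with short gap phases and inherit many of these transcripts from the oocyte.

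Levels are log2 values of the processed signal over the 75th percentile of the same array, so 0 is the 75th percentile and 1 unit is a 2-fold step. Between 50.8% and 61.4% of probes were well above background per array. Each class sat on its own slide and in its own scan, so slide, scan and class cannot be told apart. Only female against male IVF embryos were compared within 1 slide. Each array holds 1 embryo, and a p-value sets a difference against the spread between single embryos within a group. That spread lies within slides and holds no variation between slides. Fewer cells in an embryo and less RNA per cell cannot be told apart in whole-embryo RNA. Xist was 1.36 to 2.45 in siXist embryos, against 4.56 to 5.65 in siCont embryos, a difference of -3.04 ± 0.48 (SE) with a limma adjusted p of 0.11. Of 12 morula marker genes with a probe, 11 to 12 were well above background in siXist embryos, 10 to 12 in siCont embryos and 12 in every IVF embryo. Of 10 Sertoli cell markers with a probe, 5 to 8 were well above background in siXist, 6 to 7 in siCont and 5 to 7 in IVF embryos, and Amh was above it on no array. Of 8 cumulus cell markers, 1 to 4 were well above background in siXist, 1 to 4 in siCont and 0 to 2 in IVF embryos.

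None of the 42 tested members passed an adjusted p of 0.05 in any of the 4 comparisons, by limma with Benjamini-Hochberg adjustment over all 19038 features. For siXist against siCont embryos, 0.0105% of all features passed. The share was 0.415% in the comparison of siCont with IVF embryos, 0.578% in that of siXist with IVF embryos and 0.0158% in that of the IVF sexes. At an unadjusted p under 0.05, 4 members were lower in siXist than in siCont embryos and 0 were higher, against 9.5% and 4.39% of all features. At the same level, 2 members were lower in siXist than in IVF embryos (8.84% of all features), 1 was higher in siCont than in IVF embryos (6.84%), and 0 separated female from male IVF embryos (1.53%). These shares of members were near or below those of all features, and the values that follow are descriptions of members whose differences did not pass the adjusted threshold.

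**Figure D1:**
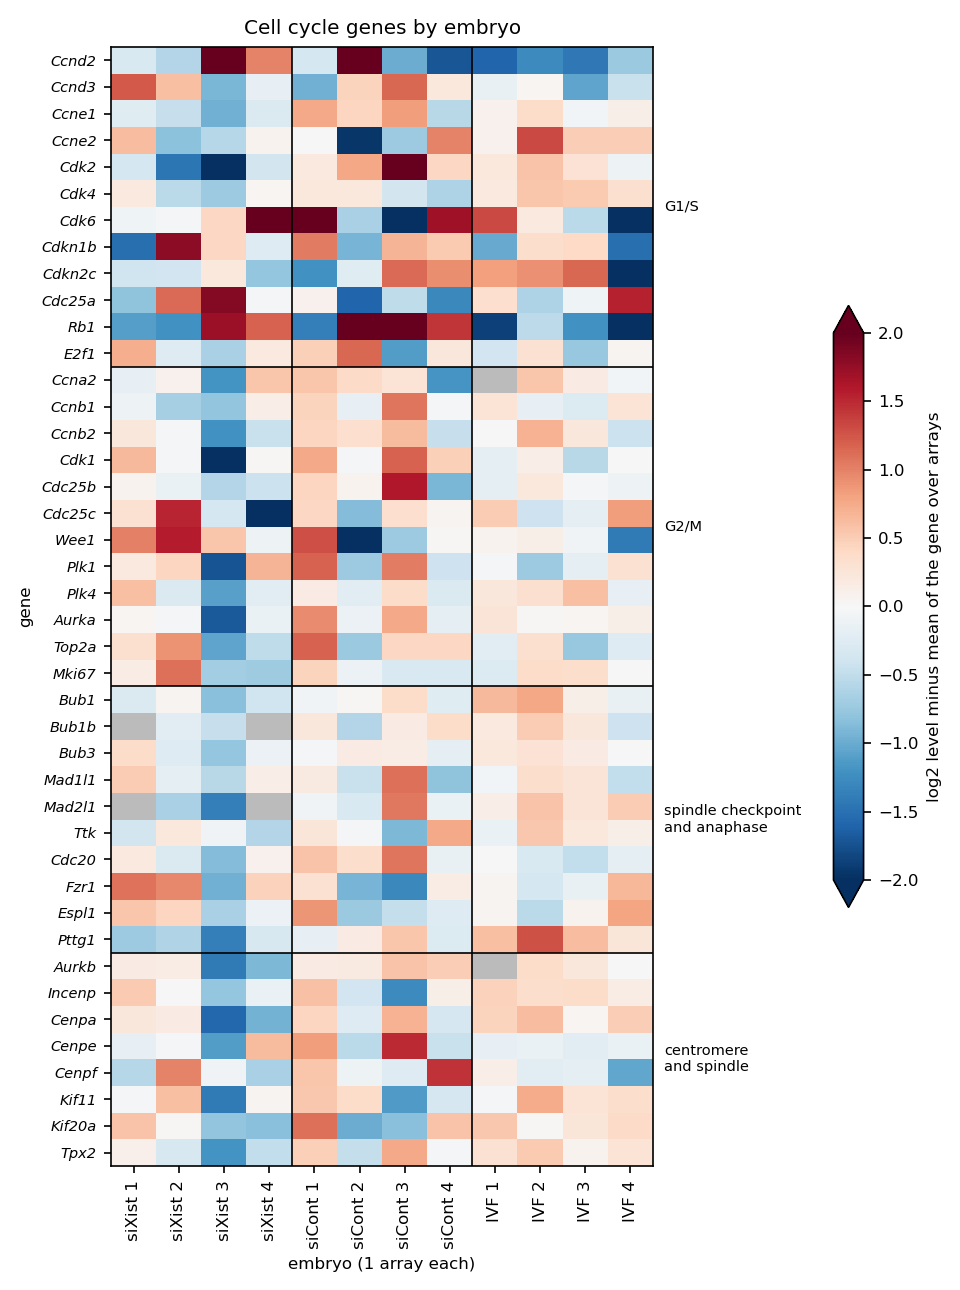
Level of each of the 42 tested members in each of the 12 embryos, as log2 level minus the mean of that gene over the arrays with a value, with genes grouped by role from G1/S at the top. Red is above and blue below the mean of the gene, grey is a spot left out as an outlier, and the scale stops at 2 units either way. The column of siXist embryo 3 is the bluest for G2/M and centromere genes.

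Set against siCont embryos, siXist embryos had lower values for 33 of the 42 members, with a median difference of -0.31, while 60.2% of all features were lower, with a median of -0.21. By role, the median was -0.15 for G1/S genes (8 of 12 lower), -0.39 for G2/M genes (10 of 12), -0.30 for checkpoint and anaphase genes (8 of 10) and -0.50 for centromere and spindle genes (7 of 8). This lower level depended on the scaling of the arrays. With the percentile taken over probes detected on all arrays, the member median was 0.00106 with 21 members lower, and the median of all features was 0.03. In the value table of the authors, whose constant per array is of unknown origin, the member median was 0.90 and that of all features 0.93. Relative to the median of all features, the members lay -0.10 away under the main scaling, -0.03 under the percentile over detected probes and -0.03 in the table of the authors. These alternatives shift each array by a constant, which moves members and features alike unless spots were left out. With outlier spots kept under the main scaling, the members lay -0.03 away. Other settings placed them at -0.11 (quantile normalization), -0.15 (normexp and quantile), -0.14 (floor under dim signals), -0.18 (mean of kept probes) and 0.11 (no filter).

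Among G1/S genes, Cdk2, the partner of cyclins E and A at the start of DNA replication, differed most between siXist and siCont embryos. It was -0.64, -1.73, -3.12 and -0.66 in siXist embryos 1 to 4, against -0.09, 0.49, 2.36 and 0.13 in siCont embryos 1 to 4 and -0.07, 0.29, 0.00 and -0.39 in IVF embryos 1 to 4. On this probe, the brightest of the gene, all 4 siXist embryos lay below all 4 siCont and all 4 IVF embryos, with siXist embryo 3 lowest and siCont embryo 3 highest. The difference was -2.26 ± 0.67 against siCont (limma adjusted p = 0.30) and -1.50 ± 0.67 against IVF (adjusted p = 0.36). A second, dimmer kept probe of Cdk2 did not separate the classes. It was -1.32, -5.75, -8.83 and -4.20 in siXist embryos 1 to 4, against -2.70 to -1.31 in siCont and -4.40 to -2.66 in IVF embryos, and was not well above background in siXist embryo 3. On it siXist embryo 1 lay above every IVF embryo and inside the siCont range. Over the 24 alternatives run for the siCont comparison, the adjusted p ranged from 0.23 to 0.51.

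Ccne1, cyclin E1, was 7.05, 6.83, 6.34 and 7.01 in siXist embryos 1 to 4, against 8.06, 7.73, 8.13 and 6.75 in siCont embryos 1 to 4 and 7.38, 7.66, 7.24 and 7.41 in IVF embryos 1 to 4. On this probe the siXist embryos lay below every IVF embryo, and below all siCont embryos other than embryo 4. The differences were -0.86 ± 0.36 against siCont (limma adjusted p = 0.34) and -0.62 ± 0.36 against IVF (adjusted p = 0.47). The second kept probe gave -0.90 and -0.45 and did not separate siXist from IVF embryos, at 1.90 to 2.58 in siXist and 2.39 to 3.05 in IVF embryos. Cdk4, the kinase of D cyclins, was also below every IVF embryo in all siXist embryos, at 3.57 to 4.49 in siXist, 3.68 to 4.51 in siCont and 4.50 to 4.86 in IVF embryos, with a gap that is small where the highest siXist meets the lowest IVF embryo.

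Rb1, the retinoblastoma protein that holds E2F factors, had the largest member difference between siCont and IVF embryos. It was 0.66, 0.55, 3.46 and 2.93 in siXist embryos 1 to 4, against 0.39, 3.79, 4.71 and 3.19 in siCont embryos 1 to 4 and -0.11, 1.23, 0.54 and -0.27 in IVF embryos 1 to 4. On this probe, the brightest of the gene, the embryos of both classes of clone were split, with siXist embryos 1 and 2 and siCont embryo 1 inside the IVF range. The difference was 2.67 ± 0.99 for siCont minus IVF (limma adjusted p = 0.29) and 1.55 ± 0.99 for siXist minus IVF (adjusted p = 0.51). For siXist minus siCont its 2 kept probes disagreed, at -1.12 and 0.41. The second, dimmer probe gave 1.60 for siCont minus IVF and 2.01 for siXist minus IVF. On it siCont embryos 1 to 4 were -2.26, -3.89, -7.61 and -1.14, and IVF embryos -7.64 to -2.12. There siCont embryos 1, 2 and 3 lay inside the IVF range, and siXist embryos 3 and 4 above it. That probe was well above background on 4 siXist, 3 siCont and 2 IVF arrays.

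Ccnd2, cyclin D2, was kept through the siXist arrays alone. It was well above background on 4 siXist, 2 siCont and 0 IVF arrays, with levels of -5.24, -5.51, -1.18 and -3.94 in siXist embryos 1 to 4, against -5.29, -0.69, -5.92 and -6.63 in siCont embryos 1 to 4. On this probe it was at least 4.08-fold higher in siXist than in IVF embryos (limma adjusted p = 0.48), and at least 2.15-fold without siXist embryo 3. The bound took the lowest signal well above background on each IVF array, or the signal of the probe where that was higher. The other 2 probes of Ccnd2 were not kept. Each was well above background on 1 siXist and 1 siCont array, and the second also on 1 IVF array. Their siXist minus IVF differences were 0.92 and 0.65. On these probes siXist embryo 3 was -0.10 and -0.13. The other siXist embryos were -8.25 to -7.87 and -7.91 to -7.59, against -7.47 to -6.29 and -7.79 to -4.07 in IVF embryos. No fold is given for siCont, where 2 arrays were below background and embryo 4 lay below every IVF embryo. A gene kept through 1 class had to be higher there than in a class below background, and siXist embryo 3 and siCont embryo 2 were the highest of their classes. Cdc25a, the phosphatase that activates Cdk2, gave 1.37 ± 0.68 for siXist minus siCont and -1.12 ± 0.68 for siCont minus IVF (adjusted p = 0.40 and 0.50).

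The other G1/S genes showed wide spreads. Ccne2 (cyclin E2) gave -1.02 ± 0.60 for siCont minus IVF and -0.77 ± 0.60 for siXist minus IVF (limma adjusted p = 0.49 and 0.58). Cdk6, a second kinase of D cyclins, ran from -4.04 to -1.62 in siXist, from -7.83 to -0.84 in siCont and from -7.83 to -2.63 in IVF embryos, and was well above background on 10 of 12 arrays. Ccnd3 (cyclin D3), the inhibitors Cdkn1b and Cdkn2c, and E2f1, which turns on S phase genes, each overlapped between all 3 classes. Cdkn1b, which was well above background on 11 arrays, was -5.34 to -2.05 in siXist, -4.76 to -2.80 in siCont and -5.34 to -3.43 in IVF embryos.

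**Figure D2:**
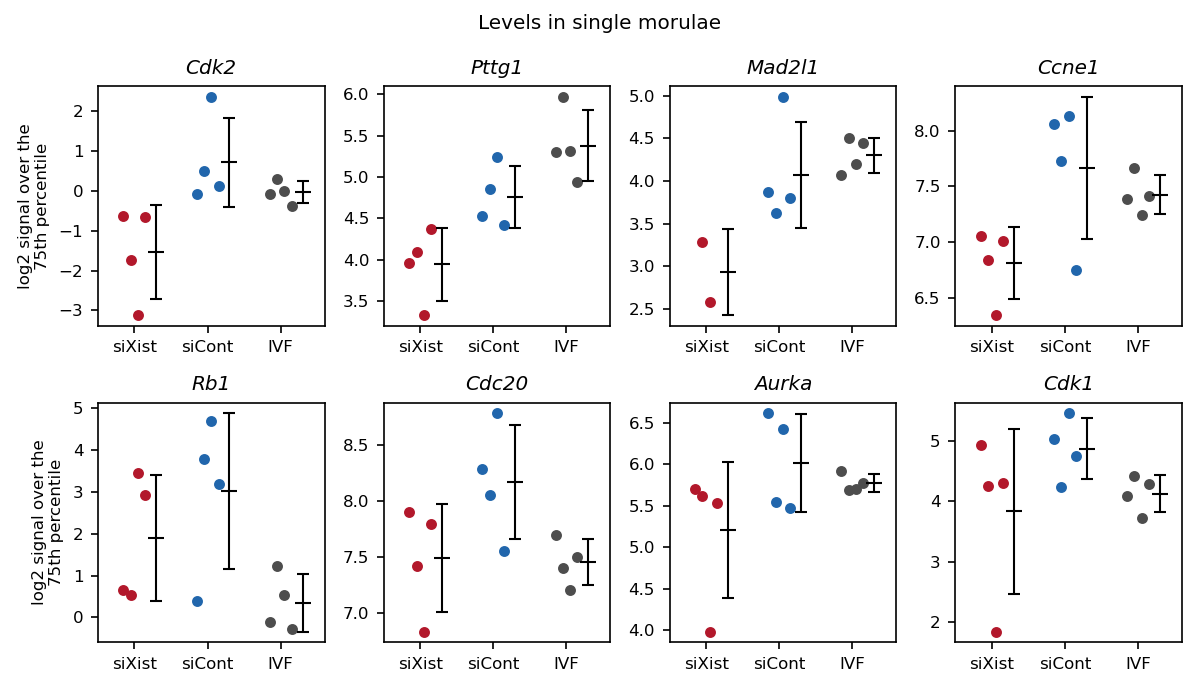
Levels of 8 members in single morulae, as log2 processed signal over the 75th percentile of the array, with 1 point per embryo and the mean and SD beside the points (n = 4, or 2 for Mad2l1 in siXist). The siXist points lie below all siCont points for Cdk2, Pttg1 and Mad2l1, and siXist embryo 3 is the low point for Aurka at 3.99 and for Cdk1 at 1.84.

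In G2 and at the entry to mitosis, Cdk1, the mitotic kinase, was 4.93, 4.26, 1.84 and 4.30 in siXist embryos 1 to 4, against 5.04, 4.24, 5.46 and 4.76 in siCont embryos 1 to 4 and 4.10, 4.42, 3.72 and 4.29 in IVF embryos 1 to 4. The 3 classes overlapped, and siXist embryo 3 was the lowest of the 12 embryos. The difference was -1.04 ± 0.61 for siXist minus siCont (limma adjusted p = 0.45) and 0.74 ± 0.61 for siCont minus IVF (adjusted p = 0.63). Aurka, the kinase of the centrosome, differed by -0.80 ± 0.45 between siXist and siCont embryos (adjusted p = 0.44), again with siXist embryo 3 far below the others. Wee1, the kinase that restrains Cdk1, gave positive differences, 1.19 ± 0.72 for siXist minus siCont and 1.08 ± 0.72 for siXist minus IVF (adjusted p = 0.46 and 0.52).

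Cyclin B1 (Ccnb1) was 6.06 to 6.97 in siXist, 6.68 to 7.90 in siCont and 6.57 to 7.11 in IVF embryos. Cyclin B2 (Ccnb2) was 3.30 to 4.73 in siXist, 4.04 to 5.14 in siCont and 4.08 to 5.20 in IVF embryos. Neither separated the classes on these probes, the brightest of each gene. The other 2 kept probes of Ccnb1, singled out after their values were seen, placed all siCont above all IVF embryos. The first was 5.13 to 6.44 in siXist, 6.54 to 8.25 in siCont and 5.44 to 6.46 in IVF embryos, so that siCont was also above all siXist embryos. The other was 3.67 to 4.79 in siXist, 4.71 to 6.87 in siCont and 4.01 to 4.65 in IVF embryos. Their siCont minus IVF differences were 1.20 and 1.17, against 0.30 for the brightest probe. The brightest probe did not separate the classes for cyclin A2 (Ccna2), measured on 11 arrays, for the phosphatases Cdc25b and Cdc25c and for the polo-like kinases Plk1 and Plk4. Top2a, which untangles sister DNA, gave 0.55 ± 0.52 for siCont minus IVF (limma adjusted p = 0.68), and the proliferation antigen Mki67 gave 0.03 ± 0.44 for siXist minus siCont (adjusted p = 0.98). The 2 kept probes of Plk4 disagreed, at -0.24 and 0.82 for siCont minus IVF and at -0.49 and 1.04 for siXist minus IVF.

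Pttg1, securin, which blocks separase until anaphase, had the smallest adjusted p of any member. It was 3.96, 4.10, 3.33 and 4.38 in siXist embryos 1 to 4, against 4.53, 4.85, 5.24 and 4.41 in siCont embryos 1 to 4 and 5.30, 5.97, 5.31 and 4.94 in IVF embryos 1 to 4. Every siXist embryo lay below every siCont and every IVF embryo, although siXist embryo 4 and siCont embryo 4 differed by little. The difference was -1.44 ± 0.36 for siXist minus IVF (limma adjusted p = 0.13), -0.82 ± 0.36 for siXist minus siCont (adjusted p = 0.35) and -0.62 ± 0.36 for siCont minus IVF (adjusted p = 0.48). Over 25 alternatives the adjusted p for siXist minus IVF ranged from 0.067 to 0.45.

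Mad2l1, the checkpoint protein that binds Cdc20 at unattached kinetochores, was 3.29 and 2.57 in siXist embryos 2 and 3, against 3.87, 3.63, 4.99 and 3.80 in siCont embryos 1 to 4 and 4.06, 4.50, 4.20 and 4.45 in IVF embryos 1 to 4. On siXist arrays 1 and 4 its spot was marked as an outlier and left out, so 2 siXist embryos enter its fit. The difference was -1.14 ± 0.48 for siXist minus siCont and -1.37 ± 0.48 for siXist minus IVF (limma adjusted p = 0.35 and 0.27). With outlier spots kept, siXist embryos 1 and 4 had 3.92 and 3.04, siXist embryo 1 lay inside the siCont range, and the difference from siCont was -0.86. Bub1b, the BubR1 kinase, also lacks siXist embryos 1 and 4, and its 2 siXist values of 2.35 and 2.10 lay inside the siCont range.

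Cdc20, which activates the anaphase-promoting complex, was 7.90, 7.42, 6.84 and 7.79 in siXist embryos 1 to 4, against 8.28, 8.05, 8.78 and 7.55 in siCont embryos 1 to 4 and 7.70, 7.40, 7.21 and 7.50 in IVF embryos 1 to 4. In siCont, 3 of 4 embryos lay above every IVF embryo, with a difference of 0.71 ± 0.36 for siCont minus IVF (limma adjusted p = 0.42). Fzr1, the other activator of that complex, gave 0.83 ± 0.55 for siXist minus siCont and -0.50 ± 0.55 for siCont minus IVF (adjusted p = 0.50 and 0.73), and its second probe gave 0.82 and -0.59. The checkpoint genes Bub1, Bub3, Mad1l1 and Ttk and the separase gene Espl1 overlapped between all 3 classes. Of the 10 genes of this role, 9 were lower in siCont than in IVF embryos, with a median of -0.20, the exception being Cdc20. Of all features, 51.9% were lower, and of the other roles 4 of 12 G1/S, 5 of 12 G2/M and 5 of 8 centromere and spindle genes. Bub1b, Mad1l1, Espl1 and Ttk each turned sign at least once when 1 embryo was left out.

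At the centromere and spindle, Aurkb, the kinase of the chromosomal passenger complex, was 3.44, 3.42, 1.86 and 2.38 in siXist embryos 1 to 4, against 3.44, 3.46, 3.84 and 3.77 in siCont embryos 1 to 4. The difference was -0.85 ± 0.41 (limma adjusted p = 0.39), and the first 2 siXist embryos were level with the lower siCont embryos. Cenpa, the histone that marks centromeres, gave -0.67 ± 0.46 for siXist minus siCont and -0.93 ± 0.46 for siXist minus IVF (adjusted p = 0.51 and 0.40). Tpx2, which activates Aurka on the spindle, gave -0.76 ± 0.38 for siXist minus IVF (adjusted p = 0.40). Incenp, the scaffold of the passenger complex, gave -0.57 ± 0.43 for siCont minus IVF (adjusted p = 0.60).

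The kinetochore proteins Cenpe and Cenpf gave 0.50 ± 0.53 and 0.75 ± 0.50 for siCont minus IVF (limma adjusted p = 0.71 and 0.54). The spindle motor Kif11 gave -0.48 ± 0.51 for siCont minus IVF (adjusted p = 0.71), and its 2 kept probes disagreed, at -0.48 and 1.58 for siCont minus IVF and at -0.53 and 0.72 for siXist minus IVF. Cenpe had 3 kept probes, which ran from -0.01 to 1.07 for siXist minus IVF. Kif20a, a motor of the midzone, was 4.63 to 6.03 in siXist, 4.47 to 6.56 in siCont and 5.48 to 6.00 in IVF embryos.

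**Figure D3:**
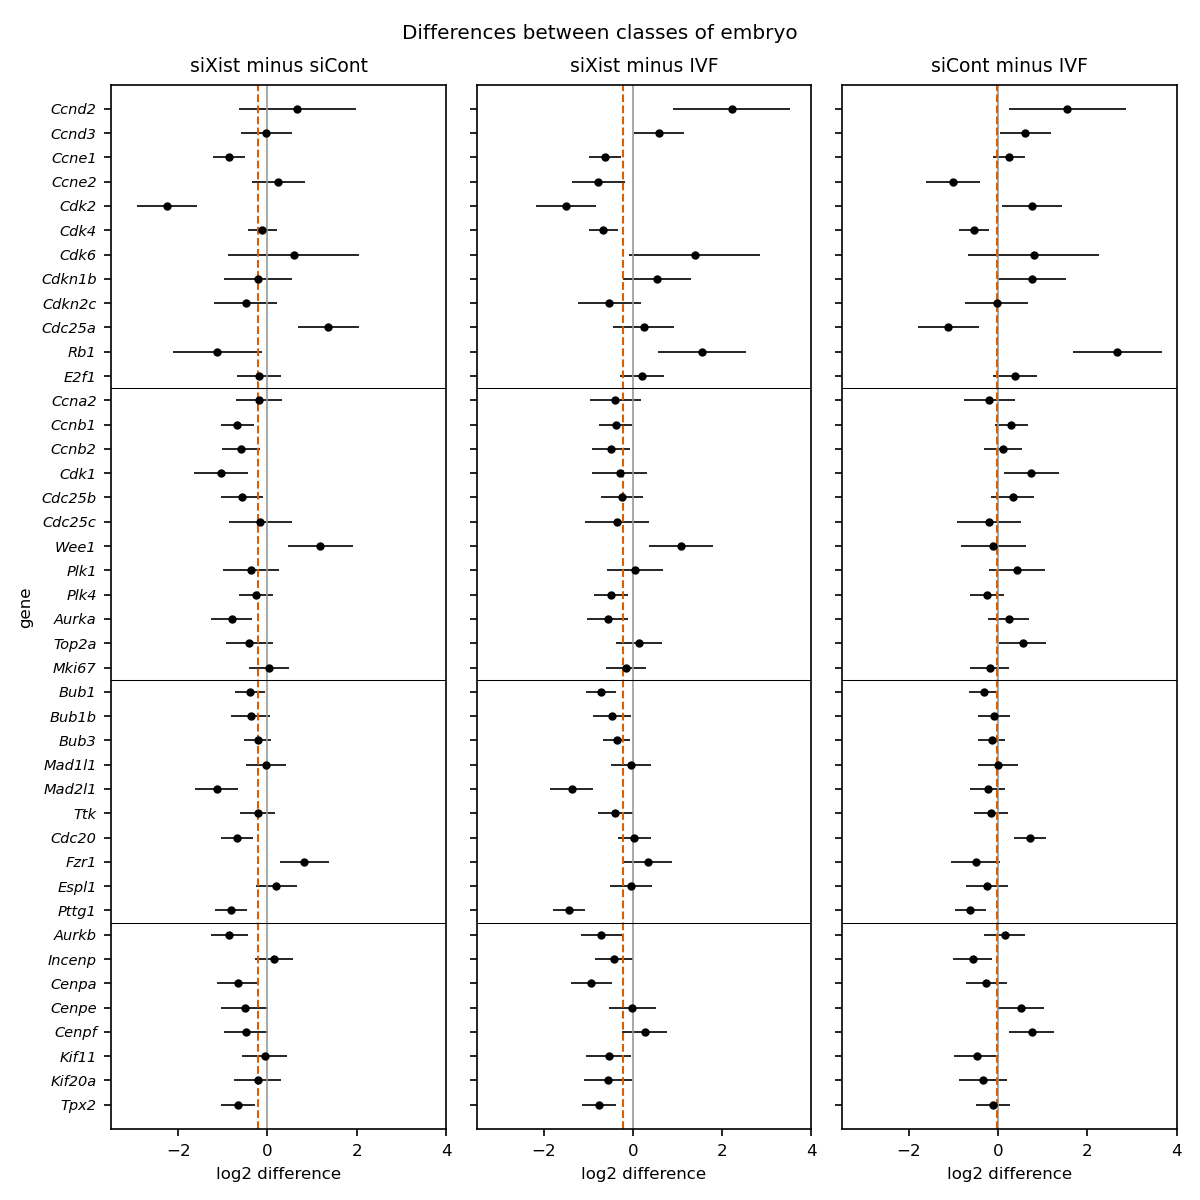
Difference and standard error on the log2 scale for each of the 42 tested members in 3 comparisons, with the dashed line at the median of all features (-0.21, -0.23 and -0.04 from left to right) and the solid line at 0. Most siXist minus siCont points lie left of 0 and near the dashed line, with Cdk2 farthest left at -2.26.

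Counts of members whose groups did not overlap, on the brightest kept probe of each gene, were read against the same count over all features. In siXist against siCont embryos, Cdk2, Mad2l1 and Pttg1 were lower without overlap, and 6.41% of all features were. Mad2l1 had 2 siXist values, and with outlier spots kept this list was Cdk2 and Pttg1. In siXist against IVF embryos, Ccne1, Cdk2, Cdk4, Mad2l1 and Pttg1 were lower without overlap (9.58% of all features). No member other than Ccnd2, which was kept through the siXist arrays alone, was higher without overlap (3.48% of all features). The second kept probes of Cdk2 and Ccne1 overlapped between these classes. For siCont against IVF embryos no member was free of overlap, compared with 10.3% of all features, although the other 2 kept probes of Ccnb1 were. With each array centred on its own median, the siXist minus siCont list of lower members was Cdk2 and Mad2l1 (5.02% of all features), that of siXist minus IVF lost Cdk4 and gained Tpx2 (6.65%), and Cdc20 was higher in siCont than in IVF embryos (6.62%).

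Set against IVF embryos, siCont embryos had lower values for 23 of 42 members with a median of -0.06 (51.9% of all features lower, median -0.04). The median was 0.50 for G1/S genes, 0.17 for G2/M genes, -0.20 for checkpoint and anaphase genes and -0.19 for centromere and spindle genes. For siXist minus IVF, 29 of 42 members were lower with a median of -0.37 (61.7% of all features, median -0.23), and the medians by role were 0.23, -0.33, -0.38 and -0.54 in the same order. These comparisons share the IVF embryos. With quantile normalization the siXist minus IVF median was -0.07 with 24 of 42 lower, beside -0.05 for all features. The remaining members at the ends of their role lists did not pass the threshold either. For siXist minus siCont these were 0.67 ± 1.31 for Ccnd2, 0.20 ± 0.47 for Espl1 and 0.14 ± 0.43 for Incenp. For siCont minus IVF, Cdc25c gave -0.20 ± 0.71. For siXist minus IVF, Aurka gave -0.57 ± 0.45, Top2a 0.14 ± 0.52, Cdc20 0.04 ± 0.36, Fzr1 0.33 ± 0.55 and Cenpf 0.26 ± 0.50. Among 98 other cell cycle genes listed, 91 were tested and 0 passed the threshold in any comparison. In siXist minus siCont, 69 of the 91 were lower with a median of -0.34, in siCont minus IVF 49 were lower with a median of -0.07, and in siXist minus IVF 66 were lower with a median of -0.23.

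The summed level of 7 oocyte genes was 2.09 to 3.23 in siXist embryos, against 3.42 to 3.80 in siCont embryos and 2.24 to 3.25 in IVF embryos. Of the 7 genes, 5 were lower and 2 higher in siXist than in siCont embryos, with none past the threshold. Against IVF embryos, Oosp1, an oocyte-secreted protein, was higher in siXist embryos by 2.43 ± 0.43 (limma adjusted p = 0.044), while Bmp15, an oocyte growth factor, gave -2.29 ± 1.66 (adjusted p = 0.55). For siCont minus IVF, 5 of the 7 were higher and 2 lower, with 0 past the threshold. There Oosp1 gave 1.48 ± 0.43 and Bmp15 gave -1.45 ± 1.66 (limma adjusted p = 0.20 and 0.74). Oocytes also carry many of the members described here. The part of oocyte RNA in the difference between siXist and siCont embryos was not tested.

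Between female and male IVF embryos, 9 members were higher in both females than in both males (16.9% of all features) and 2 were lower (11.7%), in 2 against 2 embryos. The members that were higher were Ccnd2, Ccne1, Ccne2, E2f1, Cdk1, Mad2l1, Cenpa, Cenpe and Kif11, and those that were lower were Incenp and Cenpf. Ccnd2 was well above background on 0 of the 4 IVF arrays, so its order is that of signals at background, which leaves 8 members. E2f1 was 2.69 and 2.43 in the females, against 1.99 and 1.62 in the males, a difference of 0.76 ± 0.70 (limma adjusted p = 1.00). Cdkn2c had the smallest p, at 1.31 and -1.75 in the females, against 1.22 and 1.55 in the males, so female embryo 4 alone was low. Cdk6 gave -2.23 ± 2.07 with females of -3.75 and -7.83, against males of -2.63 and -4.48. Other members at the ends of their role lists ran from 0.29 ± 0.54 for Ttk to 0.62 ± 0.85 for Ccne2 among those higher in females, with Top2a, Cdk1, Kif11, Mad2l1 and Cenpa between. Those lower in females ran from -0.17 for Mad1l1 and Bub1b to -0.65 ± 1.02 for Wee1, with Kif20a, Plk4 and Cenpf between. The member median was 0.06, with 17 of 42 lower, beside 47.5% of all features and a median of 0.03.

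The spread of members between embryos of a class was described by the SD. The median SD over the 4 embryos was 0.70 in siXist, 0.76 in siCont and 0.34 in IVF embryos, while over all features it was 0.72, 0.78 and 0.52. The SD was larger in siXist than in IVF embryos for 37 of 42 members (67.9% of all features) and larger in siCont than in IVF embryos for 36 of 42 (73.0%). The next genes were picked by their IVF SD, so a low one was likely to be exceeded in the clones. Aurka, with the lowest IVF SD of the G2/M genes, had an SD of 0.82 in siXist, 0.59 in siCont and 0.10 in IVF embryos. Its siXist SD came mostly from embryo 3, at 3.99 against 5.54 to 5.70 in the other siXist embryos. Cenpe, with the lowest IVF SD of any member, had 0.72 in siXist, 0.99 in siCont and 0.047 in IVF embryos. A dimmer kept probe of Cenpe did not show this, at -5.29 to -2.82 in siXist, -4.41 to -2.86 in siCont and -6.36 to -3.52 in IVF embryos. Cdk6, with the highest IVF SD, had 1.14 in siXist, 3.06 in siCont and 2.24 in IVF embryos.

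Within siXist, embryo 3 was the lowest of its class for 27 of the 40 members measured in all 4 embryos, compared with 46.1% of all features. With arrays centred on their medians, it was lowest for 23 of 40, compared with 30.8%. The median gap between embryo 3 and the mean of the other siXist embryos was -0.79 for members and -0.40 for all features, and it was -0.42 for G1/S genes, -1.12 for G2/M genes, -0.74 for checkpoint and anaphase genes and -1.09 for centromere and spindle genes. The largest gaps were -2.65 for Cdk1, -2.16 for Plk1, -2.11 for Cdk2, -1.79 for Fzr1 and -1.63 for Aurka. In the same embryo Ccnd2, Rb1 and Cdc25a lay above the mean of the other siXist embryos, by 3.71, 2.08 and 1.73. The array of this embryo had the highest 75th percentile signal of the 12, at 1133, and the highest share of probes well above background, at 61.4%; the part of these in the pattern was not tested. Without siXist embryo 3 the siXist minus siCont median of members was -0.21 with 26 of 42 lower, beside -0.11 for all features. The siXist minus IVF median of members was then -0.16 with 25 of 42 lower, beside -0.12 for all features.

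**Figure D4:**
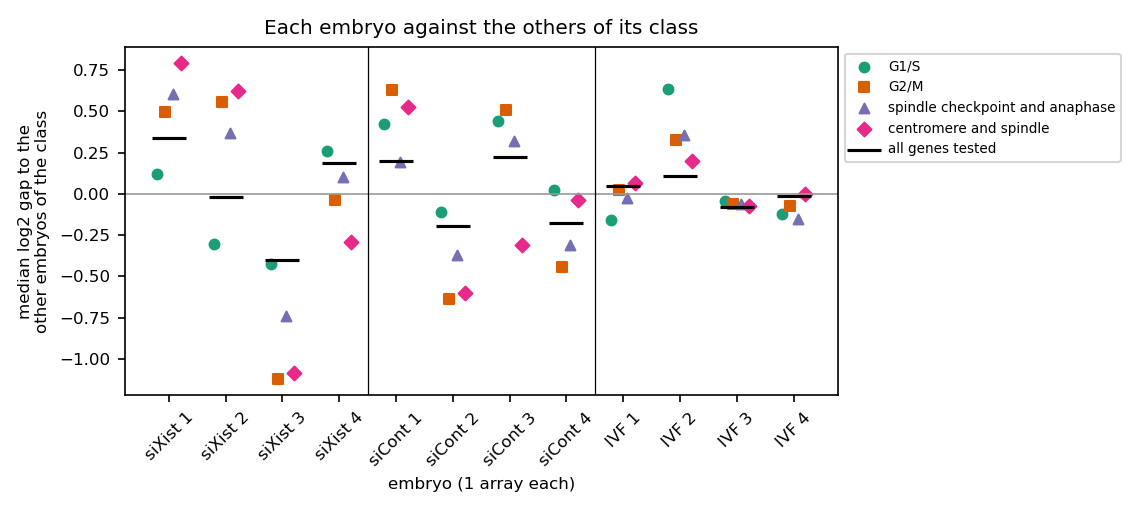
Median gap on the log2 scale between each embryo and the mean of the other embryos of its class, by role (coloured symbols) and for all features tested (black bar). In siXist embryo 3 the G2/M and centromere symbols lie at -1.12 and -1.09, below the bar at -0.40, and every symbol of the IVF embryos lies nearer 0 than these.

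In siCont, embryo 3 was the highest of its class for 19 of 42 members (37.1% of all features). In IVF, embryo 2 was the highest for 24 of 40 (33.3%), and for 20 of 40 after centring (30.0%). These orders are those of single embryos and have no further replicate.

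The G2/M genes that were low together in siXist embryo 3 belong to a class of genes whose promoters are known for shared elements, and promoter letters were read for the members. Late cell cycle promoters often carry a cell cycle homology region, the CHR, together with CCAAT boxes bound by the factor NF-Y, and G1/S promoters often carry E2F sites. The windows were RefSeq sequences of 300 bases, 250 before and 50 after the start, on build GRCm38.p6, and 32 of the 43 members matched by symbol. The 4 windows shown are those with the lowest siXist embryo 3 against the other siXist embryos among the 17 windows whose start is the outer end of the RefSeq gene. That choice, the motifs and the split by CHR were made after the values were seen. Capitals mark the CHR letters TTTGAA, the CCAAT letters and the E2F letters TTTGGCGC, TTTCCCGC, TTTGCCGC or TTTCGCGC, each on either strand, and no motif overlapped another in these 4 windows.
Cdk1: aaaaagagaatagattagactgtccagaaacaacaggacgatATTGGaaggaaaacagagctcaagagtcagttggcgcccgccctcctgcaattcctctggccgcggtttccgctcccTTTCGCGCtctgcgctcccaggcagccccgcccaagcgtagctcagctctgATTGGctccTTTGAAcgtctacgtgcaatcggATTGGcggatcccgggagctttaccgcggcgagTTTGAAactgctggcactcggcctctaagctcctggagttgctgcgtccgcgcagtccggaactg
Plk1: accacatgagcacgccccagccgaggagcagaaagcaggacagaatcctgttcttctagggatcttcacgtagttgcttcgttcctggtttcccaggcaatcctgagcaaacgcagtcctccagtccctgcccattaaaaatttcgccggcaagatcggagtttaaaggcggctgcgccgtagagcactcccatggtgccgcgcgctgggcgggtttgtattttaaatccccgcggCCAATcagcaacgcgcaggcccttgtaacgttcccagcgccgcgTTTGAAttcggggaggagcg
Cdk2: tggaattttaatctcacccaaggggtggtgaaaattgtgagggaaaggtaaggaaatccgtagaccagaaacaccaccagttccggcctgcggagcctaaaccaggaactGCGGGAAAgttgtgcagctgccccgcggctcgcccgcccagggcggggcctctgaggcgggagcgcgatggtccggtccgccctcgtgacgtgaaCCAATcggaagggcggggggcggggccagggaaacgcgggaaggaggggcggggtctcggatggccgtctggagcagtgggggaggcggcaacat
Fzr1: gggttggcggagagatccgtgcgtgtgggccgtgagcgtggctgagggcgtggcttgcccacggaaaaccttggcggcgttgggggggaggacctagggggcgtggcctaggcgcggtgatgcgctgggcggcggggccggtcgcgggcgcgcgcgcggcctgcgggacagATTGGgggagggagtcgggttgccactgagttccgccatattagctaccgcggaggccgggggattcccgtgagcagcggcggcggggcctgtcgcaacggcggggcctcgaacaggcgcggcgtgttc
The Cdk1 window lay at chr10:69352863-69353162 on the minus strand. The Plk1 window lay at chr7:122159185-122159484 on the plus strand. The Cdk2 window lay at chr10:128705002-128705301 on the minus strand. The Fzr1 window lay at chr10:81378321-81378620 on the minus strand. In the Cdk1 window TTTGAA began at -71 and -15 relative to the start, with CCAAT letters at 3 places and an E2F match. Plk1 held TTTGAA and CCAAT, while Cdk2 held CCAAT and an E2F match and Fzr1 held CCAAT alone.

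Over the members, TTTGAA was in 6 of 9 G2/M windows, 5 of 10 checkpoint and anaphase windows, 3 of 4 centromere and spindle windows and 0 of 9 G1/S windows, compared with 18.1% of all 27025 windows and 12.6% of the 10838 windows of tested genes. CCAAT was in 22 of 32 member windows (37.9% of all windows) and E2F letters in 3 of 32 (2.32% of all windows), beside 38.8% and 3.79% of the windows of tested genes. In siXist embryo 3, the median gap to the other siXist embryos was -1.03 for the 14 members with TTTGAA and -0.66 for the 18 without, and the ranges overlapped, from -2.65 to 0.18 with it and from -2.11 to 1.73 without it. The 9 G1/S windows are all among the 18, and G1/S genes had the smallest median gap of the roles in this embryo (-0.42). Letters and role are therefore not separated in this split. A match describes letters in a window and is neither a bound site nor a cause.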

How the data were processed

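RNA of 12 single morulae was extracted with TRIzol, amplified in a pair of rounds and labelled with Cy3, per the labels' protocols. The scanner files hold intensity values from Agilent Feature Extraction 10.5.1.1, per the file headers, background-subtracted within the array and not normalized between arrays. A table deposited by the authors holds log2 values centred by probe, with a constant per array of unknown origin, as found by setting it against the scanner values. It was used only as an alternative.

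The processed signal was divided by the 75th percentile of non-control spots of the array and log2 was taken. Outlier spots were left out and spots of a probe averaged. A probe was kept if well above background on at least 3 of 4 arrays of any class, which kept 24840 of 41174. A gene is its brightest kept probe, and names came through RefSeq accessions (26888 probes, 65.3%, 18327 symbols). limma 3.58.1 under R 4.3.3 fitted 4 means (siXist, siCont, female IVF, male IVF; 8 residual degrees of freedom) with eBayes, and the IVF mean weights the sexes equally. Tests were two-sided, with Benjamini-Hochberg adjustment over 19038 features at 0.05. The fit was tested on simulated data with planted changes larger than any class difference of a member. That test does not show whether smaller changes would pass the threshold. The labels state biological replicates for the siRNA groups; for IVF embryos nothing more is said of their origin.

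Members, lists and tests were chosen with earlier results of these data known. Values are given for members with the 2 largest differences each way per role, with groups that do not overlap, with probes that disagree, or with the 3 smallest p per comparison. Replicate numbers did not pair the embryos: the correlation of same-numbered deviations was -0.15 to 0.06. Alternatives changed the scaling, background correction, filter, probe choice, floor, weights, groups fitted and embryos. Keeping outlier spots, centring arrays, reading overlap on the other kept probes and counting signs over all members were chosen after seeing the data.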

Additional observations from a re-analysis of the deposited data

Results flagged for a closer look

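In 4 of 122 groups of 4 embryos, 1 embryo lay apart from the other 3 by more than Dixon's critical value of 0.829 (gap over range). Chance flags about 1 group in 20. Aurka was 3.99 in siXist embryo 3, against 5.54 to 5.70 in the other siXist embryos. Ccna2 was 4.26 in siCont embryo 4, against 5.72 to 5.99 in the other siCont embryos. Cdkn2c was -1.75 in IVF embryo 4, against 1.22 to 1.55 in the other IVF embryos. Wee1 was -2.94 in IVF embryo 4, against -1.60 to -1.42 in the other IVF embryos. Each of these spots was well above background.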

How the results depend on the processing

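No member passed the threshold under any alternative run, for any of the 4 comparisons. The median of members moved in 4 cases: for siXist minus siCont to 0.90 in the table of the authors and 0.00106 with the percentile over detected probes, for siCont minus IVF to -1.16 and for female minus male IVF to -0.63 in the table of the authors. In that table, whose constants shift whole arrays, 32 of 42 members changed sign for siXist minus siCont, 17 for siCont minus IVF, 1 for siXist minus IVF and 24 for female minus male IVF. Of the members given values by the naming rule, these changed. For siXist minus siCont the values were 0.33 (Aurka), 0.28 (Aurkb), 0.28 (Ccne1), 0.0935 (Cdk1), 0.47 (Cenpa), 0.27 (Mad2l1), 0.32 (Pttg1) and 0.0123 (Rb1). For siCont minus IVF the values were -0.39 (Cdc20), -0.35 (Cdk1), -0.60 (Cenpe), -0.35 (Cenpf) and -0.55 (Top2a). For siXist minus IVF the values were 0.0295 (Cenpe). For female IVF minus male IVF the values were -0.20 (Ccnd2), -0.48 (Ccne1), -0.0855 (Ccne2), -0.26 (Cdk1), -0.39 (Cenpa), -0.64 (Cenpe), -0.28 (Kif11), -0.36 (Mad2l1), -0.19 (Top2a) and -0.41 (Ttk). For siXist minus siCont, 9 of the 42 members changed sign with quantile normalization, 9 with normexp and quantile, 12 with the percentile over detected probes and 6 with array weights. For the other comparisons, outside the table of the authors, at most 5 did under any alternative with all embryos. Among the members under the naming rule these changed. In siXist minus siCont, Ccnd2 was -0.10 with array weights. In siCont minus IVF, Plk4 was 0.29 with the mean of kept probes. In siXist minus IVF, Cenpe was 0.37 with quantile normalization, 0.34 with normexp and quantile, 0.39 with the mean of kept probes, 0.18 with array weights, 0.24 with the percentile over detected probes and 0.0234 with male IVF embryos only. In siXist minus IVF, Plk4 was 0.27 with the mean of kept probes. In siXist minus IVF, Cenpf was -0.0362 with male IVF embryos only. In female IVF minus male IVF, Cenpe was -0.0456 with quantile normalization, -0.00913 with normexp and quantile and -0.16 with the mean of kept probes. Leaving out any 1 embryo turned the sign of 17 of 42 members for siXist minus siCont, 12 for siCont minus IVF, 14 for siXist minus IVF and 23 for female minus male IVF at least once. The members under the naming rule account for 11 of these, with ranges of -0.20 to 0.42 (Incenp, siXist minus siCont), -0.35 to 0.26 (Mki67, siXist minus siCont), -0.26 to 1.98 (Ccnd2, siXist minus siCont), -0.51 to 0.11 (Cdc25c, siCont minus IVF), -0.27 to 0.31 (Cenpe, siXist minus IVF), -0.10 to 0.25 (Cdc20, siXist minus IVF), -0.19 to 0.46 (Top2a, siXist minus IVF), -0.0915 to 0.47 (Cenpf, siXist minus IVF), -0.63 to 0.29 (Bub1b, female IVF minus male IVF), -0.60 to 0.25 (Mad1l1, female IVF minus male IVF) and -1.41 to 0.11 (Wee1, female IVF minus male IVF). The siCont minus IVF median ran from -0.19 to 0.18 and was above 0 without IVF embryo 2 (0.18), IVF embryo 3 (0.00891), siCont embryo 2 (0.10) or siCont embryo 4 (0.032). The siXist minus siCont median ran from -0.55 to -0.21, the siXist minus IVF median from -0.47 to -0.16, and the female minus male IVF median from -0.00241 to 0.27. The cause of these moves was not tested. With the replicate block, although same-numbered embryos did not deviate together, 0 members passed, and 0, 12 and 13 features passed for siXist minus siCont, siCont minus IVF and siXist minus IVF. Counts over all features also moved: siXist minus siCont had 2 calls, 19 in the table of the authors, 12 with only the groups compared and 8 to 56 when 1 embryo was left out (56 without siXist embryo 1). For siCont minus IVF there were 79, with 33 (without IVF embryo 3) to 106 (without IVF embryo 2) when 1 embryo was left out, and for siXist minus IVF 110, with 34 (without siXist embryo 3) to 127 (without siCont embryo 3). Other counts over 1.5 times from these were 45 with the filter on 6 arrays and 18 with male IVF embryos only for siCont minus IVF, and 248 with array weights, 51 with the filter on 6 arrays, 42 in the table of the authors and 21 with male IVF embryos only for siXist minus IVF. For siXist minus siCont there were 4 with quantile normalization, 4 with the floor and 0 with normexp and quantile. For female minus male IVF there were 3, with 23 without the filter, 8 with array weights, 6 with the floor, 5 with normexp and quantile, 2 with the mean of kept probes, 0 with only the groups compared and 3 to 7 when 1 embryo was left out. The split of siCont minus IVF was 43 higher and 36 lower, against 14 and 96 in the table of the authors and 32 and 45 with normexp and quantile. That of siXist minus IVF was 54 higher and 56 lower, against 61 and 39 with quantile normalization and 58 and 38 with the percentile over detected probes. Only 4 arrays per class limit the precision, and dim members such as Ccnd2, Cdk6 and Cdkn1b lie near background.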
